A study of Mus musculus with 12 samples.

Results

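The step from day 2 to day 3 after induced deletion of Hdac1 and Hdac2 was examined in mouse embryonic stem (ES) cells, by setting the 3 arrays titled day 3 against the 3 arrays titled day 2. These are 6 of the 12 arrays of a time course with 3 arrays on each of days 0, 1, 2 and 3. All cells were E14 ES cells whose Hdac1 and Hdac2 genes are flanked by loxP sites on both alleles (Hdac1 lox/lox, Hdac2 lox/lox), with CreER, a Cre recombinase that enters the nucleus when 4-hydroxytamoxifen (OHT) binds it. The cells grew without feeder cells on gelatin, in medium with serum and LIF, and OHT was given for 16 hours to induce the deletion. Both the day 2 and the day 3 group therefore carried the same alleles, expressed CreER and had met OHT, and they differ in the time since then. The day 0 arrays, used below for the change up to day 2, are also titled as OHT-treated, although the design text describes them as wild type. Cells kept for the same days without OHT, and cells given OHT without loxP sites, are not analysed here, so the time after deletion and the time in culture cannot be told apart. Whether the cells came from 1 clone, and whether the 3 arrays of a day came from separate cultures, is not stated, so the p-values measure the spread between these samples, which may be technical.

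HDAC1 and HDAC2 are closely related enzymes that remove acetyl groups from histones and work as the catalytic subunits of the Sin3, NuRD and CoREST corepressor complexes. Loss of both enzymes together is known to stop proliferation of ES cells and to end in cell death, while loss of 1 of them is tolerated. Because these complexes sit both at silent genes and at active ones, their loss is known to raise some transcripts and to lower others.

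Each array gave between 14509 and 16770 probes detected at p under 0.01, and the fewest were on day 3 replicate 2. The 75th percentile of raw intensity lay between 272 (day 3 replicate 2) and 382 (day 2 replicate 3). After background correction and quantile normalization, levels are given as log2 intensity, in which 1 unit is a 2-fold difference, and 9934 genes were tested. No probe named Hdac1 is in the probe table used here. The brighter Hdac2 probe read 13.60, 13.68 and 13.71 on the day 2 arrays and 13.24, 13.12 and 13.60 on the day 3 arrays. The day 3 arrays were lower, with a log2 change of -0.34 ± 0.14 (standard error, 3 arrays per day, as for all errors below) that did not pass the test, limma adjusted p = 0.119. Without day 3 replicate 3 the same change passed, with limma adjusted p = 0.0241. On the day 0 arrays this probe read 13.70, 13.40 and 13.65. The dimmer Hdac2 probe read 6.57, 6.36 and 6.47 at day 0, 5.92, 5.70 and 5.96 at day 2 and 5.62, 5.53 and 5.34 at day 3. It was detected on 1 of the 3 day 2 arrays and on 0 of the day 3 arrays. The place of either probe against the deleted exons was not examined, so neither is a check of the deletion. Of 10 defining ES cell markers, 10 were detected on all day 2 arrays and 9 on all day 3 arrays. Of 8 fibroblast markers 6 were undetected on both days, as were 5 of 7 markers of extraembryonic endoderm (Gata4, Gata6, Sox17, Foxa2 and Pdgfra), 3 of 6 of trophoblast (Eomes, Elf5 and Hand1) and 4 of 5 of neural progenitors.

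From day 2 to day 3, 1232 of the 9934 genes passed the limma test at an adjusted p under 0.05, which is 12.4% of those tested. Of these, 566 genes were higher at day 3 (5.7%) and 666 were lower (6.7%). Changes of at least 2-fold were found for 86 of the genes that rose and 75 of those that fell. For 31.1% of all genes tested (3091), the 3 day 3 arrays lay all above or all below the 3 day 2 arrays, and this held for 1221 of the 1232 called genes. An unadjusted p under 0.05 was reached by 2907 genes. The number of calls depended on single arrays: omitting replicate 2 or 3 of day 2 left 716 or 577 calls, and omitting replicate 1 or 2 of day 3 left 785 or 642. Without any scaling between arrays, the median gene shifted by -0.36 on the log2 scale and 187 genes were called, 22 higher and 165 lower. All changes below are therefore relative to the bulk of the genes. Counts of list members called are to be read beside the 5.7% higher and 6.7% lower over all genes tested. For gene lists, counts in 1 direction that moved by over 1.5 times on omitting an array are given, except that counts of 0 or 1 moved by at most 1 where no other value stands.

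**Figure D1:**
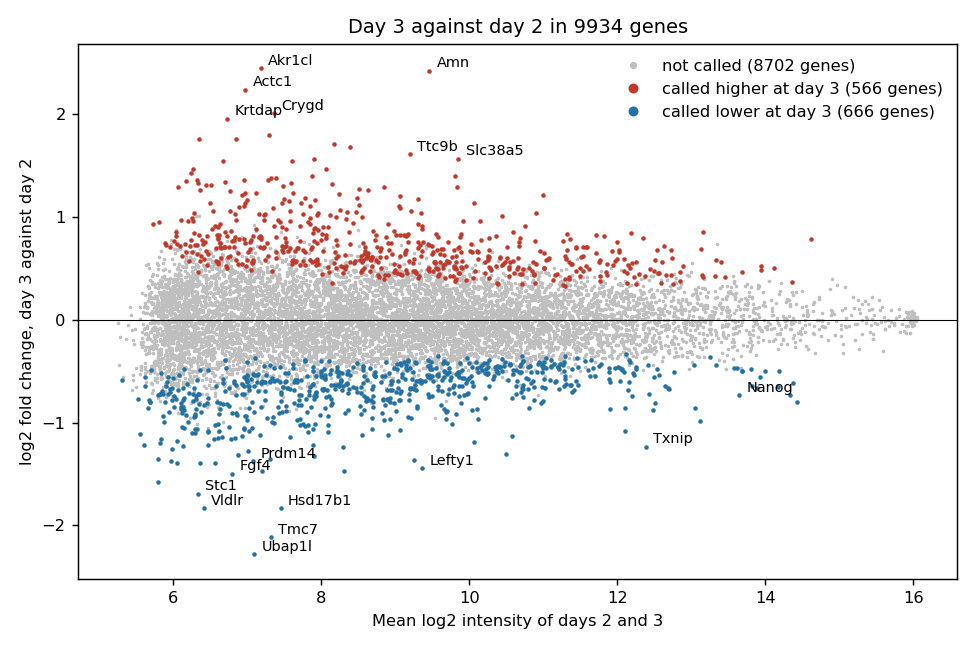
Log2 fold change of day 3 against day 2 (vertical axis) by the mean log2 intensity of both days (horizontal axis), 1 point per gene. The 566 genes called higher (red) and 666 called lower (blue) reach 2.44 for Akr1cl and -2.28 for Ubap1l, among 9934 genes.

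The genes that rose the most included several that belong to differentiated epithelia, to muscle and to the lens. Amn, whose product pairs with cubilin in the endocytic receptor of visceral endoderm, kidney and gut, read 8.35, 8.20 and 8.22 on the day 2 arrays and 10.78, 10.81 and 10.42 on the day 3 arrays. The 3 day 3 arrays lay far above the 3 day 2 arrays, a 5.34-fold rise (log2 change 2.42 ± 0.16, limma adjusted p = 6.58e-06). Amn had risen by 1.58 from day 0 to day 2 already, so it rose in both intervals. Of 7 markers of extraembryonic endoderm 5 (Gata4, Gata6, Sox17, Foxa2 and Pdgfra) were undetected on both days. Dab2, the brightest, and Sox7 were detected on all arrays of both days. They changed by 0.36 (limma adjusted p = 0.0826) and 0.16 (limma adjusted p = 0.598), and neither was called. The summed intensity of the 7 was 530 to 587 at day 2 and 600 to 683 at day 3. Of 19 measured extraembryonic endoderm genes 3 rose (15.8%, beside 5.7% of all genes tested) and 0 fell, with a median of 0.02. The rises numbered 1 on omitting replicate 2 or 3 of day 2 or replicate 2 of day 3. The part of such cells in the rise of Amn was not tested.

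Actc1, the alpha-actin of heart muscle, read 5.80, 5.80 and 5.97 at day 2 and 8.17, 8.11 and 7.99 at day 3, with the groups well apart (log2 change 2.23 ± 0.11, limma adjusted p = 7.57e-07). Of the 3 day 2 arrays 1 detected it, while all 3 day 3 arrays did. Tnnc2, the troponin C of fast skeletal muscle, read 7.78, 7.61 and 7.28 at day 2 and 9.49, 9.62 and 8.58 at day 3 (log2 change 1.67 ± 0.27, limma adjusted p = 0.00228). The day 3 values of Tnnc2 spread more widely, with replicate 3 the lowest, yet none reached down to day 2. Further muscle proteins that rose were the myosin light chains Myl9, of smooth muscle, by 1.27 (limma adjusted p = 0.00301) and Mylpf, of fast skeletal muscle, by 0.85 (limma adjusted p = 0.0073). Of 23 measured sarcomere and muscle genes 6 rose (26.1%, beside 5.7% of all genes tested) and 0 fell, with 1 lower at an unadjusted p under 0.05. Their median log2 change was 0.24, beside -0.01 over all genes tested.

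Crygd, which encodes a gamma-crystallin of the lens, read 6.18, 6.45 and 6.44 at day 2 and 8.28, 8.30 and 8.50 at day 3, a 4.02-fold rise (limma adjusted p = 2.75e-06). It was undetected on every array of days 0 and 1. Akr1cl, an aldo-keto reductase, read 6.06, 5.998 and 5.82 at day 2 and 8.22, 8.59 and 8.41 at day 3 and had the largest rise of all genes named by the rule, 2.44 ± 0.17 on the log2 scale (limma adjusted p = 1.05e-05). It was undetected on every array of days 0 and 1 and was detected on 2 of the 3 day 2 arrays.

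Some genes known from stratified epithelium were among the largest rises. Krtdap, a secreted protein of differentiating keratinocytes, read 5.62, 5.71 and 5.95 at day 2 and 7.63, 8.24 and 7.25 at day 3 (log2 change 1.95 ± 0.21, limma adjusted p = 0.000242), but 1 of the 3 day 2 arrays detected it, so the size of this rise is set by readings not above background. Dmkn (dermokine), also secreted by epidermis, read 6.68, 6.23 and 6.28 at day 2 and 8.28, 8.49 and 7.79 at day 3 (log2 change 1.79 ± 0.20, limma adjusted p = 0.000291). Krt14, the keratin of basal epidermal cells, read 7.38, 6.94 and 7.06 at day 2 and 8.65, 8.80 and 8.62 at day 3 (log2 change 1.56 ± 0.31, limma adjusted p = 0.00757). In all 3 genes the day 3 arrays stood above the day 2 arrays by more than the spread within either day. The tight junction protein Cldn10 rose by 1.75 (limma adjusted p = 0.000242, detected on 2 of the 3 day 2 arrays), and Psors1c2, another epidermal gene, by 1.71 (limma adjusted p = 0.000582). Of 36 measured epithelial genes 6 rose (16.7%, beside 5.7% of all genes tested) and 0 fell, with 3 lower at an unadjusted p under 0.05, and the median was 0.13. Besides Krtdap they include Sfn, the 14-3-3 sigma protein of epithelia (log2 change 1.21, limma adjusted p = 0.000382), Lgals7, the keratinocyte galectin-7 (1.13, 0.00355), and Ovol1, an epithelial transcription factor (0.71, 0.0141).

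**Figure D2:**
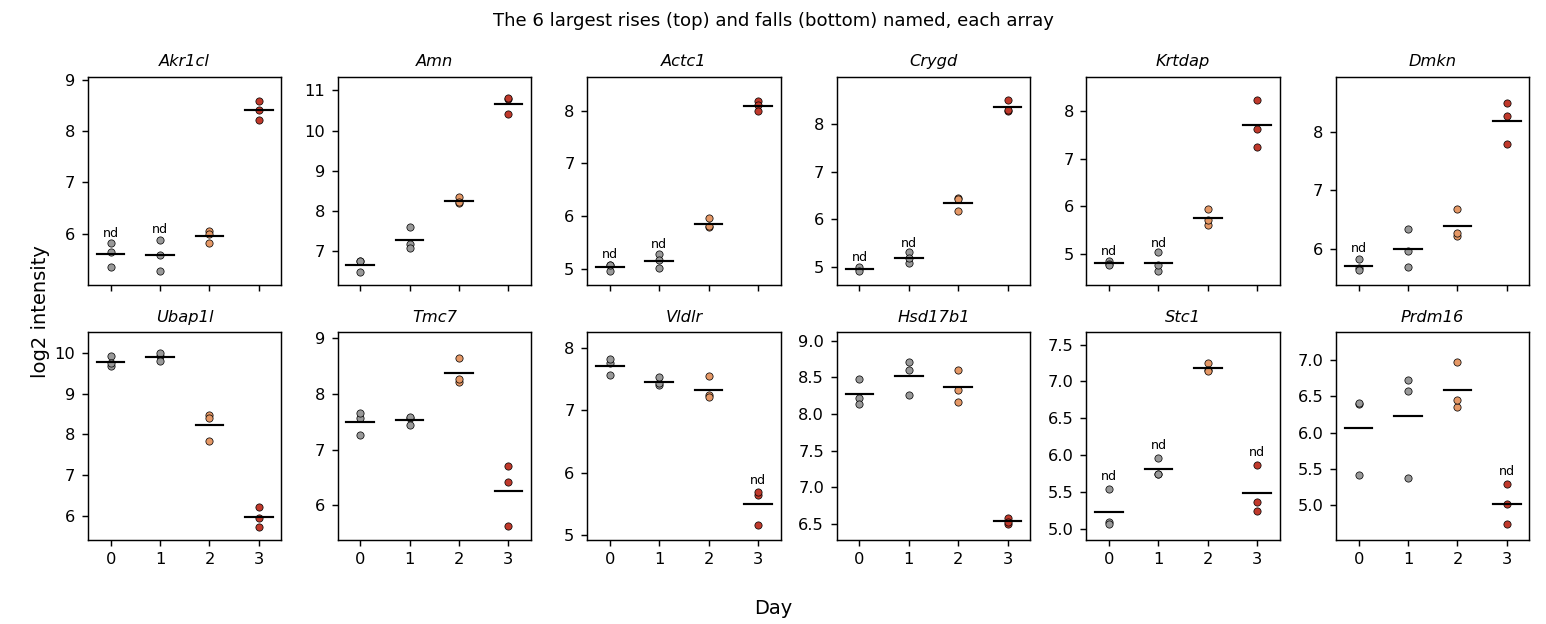
Log2 intensity on each array (points) and the mean of each day (bar) for the 6 largest rises and 6 largest falls named, with day on the horizontal axis and nd marking days on which no array detected the probe. The 3 day 3 arrays (red) lie wholly above the day 2 arrays (orange) in the upper panels and wholly below them in the lower ones.

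Of 22 measured trophectoderm genes 7 rose (31.8%, beside 5.7% of all genes tested) and 1 fell (4.5%, beside 6.7%), with a median of 0.13. The rises numbered 4, 3 and 4 on omitting replicate 1, 2 or 3 of day 2, and 4 and 3 on omitting replicate 1 or 2 of day 3, so this count rests on single arrays. Tead4, the transcription factor that sets up the trophectoderm, read 7.03, 6.92 and 6.78 at day 2 and 8.25, 8.35 and 7.63 at day 3 (log2 change 1.17 ± 0.16, limma adjusted p = 0.00114), with no overlap between the days. Wnt7b, a Wnt ligand, rose by 0.94 (limma adjusted p = 0.00215). The trophoblast markers Eomes, Elf5 and Hand1 were undetected at both days. The summed intensity of the 6 trophoblast markers was 8860 to 9626 at day 2 and 8318 to 9808 at day 3, ranges that overlap. Tfap2c, at a mean of 13.1 and then 13.05, was by far the brightest, so this sum mostly follows Tfap2c and says little of the others. Gata3 changed by 0.68 (limma adjusted p = 0.0948) and Cdx2 by -0.39 (limma adjusted p = 0.0982), and neither was called. Wnt4, another Wnt ligand, rose by 0.96 (limma adjusted p = 0.0061). Of 21 Wnt pathway genes 3 rose (14.3%, beside 5.7% of all genes tested) and 0 fell, with 2 lower at an unadjusted p under 0.05 (median 0.20).

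Neuronal genes, many of them known targets of the REST repressor, which recruits HDAC1 and HDAC2 through CoREST and Sin3, made up the list with the largest share of rises among the 40 examined. Of 32 measured, 13 rose (40.6%, beside 5.7% of all genes tested) and 1 fell (3.1%, beside 6.7%), and the median log2 change was 0.31. Vgf, a secreted neuropeptide precursor, read 7.73, 8.37 and 7.91 at day 2 and 9.39, 9.35 and 9.04 at day 3 (log2 change 1.26 ± 0.17, limma adjusted p = 0.000823). All 3 day 3 arrays exceeded all 3 day 2 arrays, although from day 0 to day 2 Vgf had a change of only 0.07. Camk2n2, an inhibitor of CaM kinase II, read 9.19, 8.90 and 9.23 at day 2 and 10.39, 10.43 and 10.70 at day 3 (log2 change 1.40 ± 0.19, limma adjusted p = 0.00102), after a rise of 1.57 up to day 2. Mapk8ip1, a scaffold of the JNK kinase pathway, rose by 1.00 (limma adjusted p = 0.000741). The exception was Camk2n1, another CaM kinase II inhibitor, which read 7.94, 7.94 and 8.05 at day 2 and 6.32, 6.79 and 6.77 at day 3, lower on every day 3 array (log2 change -1.35 ± 0.19, limma adjusted p = 0.00114). The number of neuronal genes that rose was 8 on omitting replicate 2 or 3 of day 2, and 7 on omitting replicate 2 of day 3. Of the 5 neural progenitor markers, 4 were undetected on both days, and the summed intensity was 441 to 494 at day 2 and 390 to 467 at day 3.

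Signalling genes were called in both directions, beside 5.7% higher and 6.7% lower of all genes tested. Of 19 measured FGF and ERK genes 2 rose (10.5%) and 3 fell (15.8%), with a median of -0.02. Of 19 Nodal and BMP genes 5 rose (26.3%) and 3 fell (15.8%), with a median of -0.17. The rises of the first numbered 4 on omitting replicate 3 of day 3, and those of the second 3 on omitting replicate 2 or 3 of day 2, and 3 on omitting replicate 1 or 2 of day 3. Fgfr2, a fibroblast growth factor receptor, read 8.90, 8.71 and 8.93 at day 2 and 9.72, 9.83 and 9.77 at day 3 (log2 change 0.93 ± 0.11, limma adjusted p = 0.000435). Dusp4, a phosphatase that switches off ERK, rose by 1.01 (limma adjusted p = 0.00114) and Dusp2, a related phosphatase, by 1.24 (limma adjusted p = 0.00138). The day 3 arrays of these 3 genes did not overlap the day 2 arrays. Tgfb1, the ligand TGF-beta 1, rose by 1.07 (limma adjusted p = 0.00331), as did Id1 by 0.56 (limma adjusted p = 0.00451) and Id3 by 0.67 (limma adjusted p = 0.00758), both targets of BMP signalling. Fgf4, Egr1, Lefty1 and Lefty2, which fell, are described below. Of 52 measured cytoskeleton and adhesion genes 7 rose (13.5%) and 1 fell (1.9%), with a median of 0.02. The rises were 4 on omitting replicate 2 or 3 of day 2, and 4 on omitting replicate 1 or 2 of day 3. Among them S100a6, a calcium-binding protein, rose by 0.83 (limma adjusted p = 0.0035) and Zyx, the focal adhesion protein zyxin, by 0.71 (limma adjusted p = 0.00436). The summed intensity of 8 fibroblast markers, 6 of them undetected on both days and Thy1 the 1 called higher (limma adjusted p = 0.0144, but 0.0555 to 0.0597 on omitting replicate 3 of day 2 or replicate 1 or 2 of day 3), was 2503 to 2810 at day 2 and 3240 to 4949 at day 3. Thy1, at a mean of 11.24 and then 11.95, was by far the brightest, so this sum mostly follows Thy1 alone. Col1a1 was detected on 1 day 2 array and on 0 day 3 arrays. The part of such cells in these rises was not tested. Rsad2 (viperin), an interferon-induced antiviral enzyme, was undetected on all day 2 arrays and read 7.26, 7.32 and 7.11 at day 3. It was at least 2.45-fold higher at day 3 (limma adjusted p = 8.49e-05), where the bound sets the day 3 mean against each day 2 array's dimmest detected probe, or the probe's own reading where that was higher. Its list moved both ways, near the shares over all genes tested: of 34 interferon and antigen presentation genes 2 rose (5.9%) and 3 fell (8.8%), with a median of 0.03. The falls were 1 on omitting replicate 2 or 3 of day 2 and the rises 6 on omitting replicate 3 of day 3.

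Among single genes, Slc38a5, a transporter of glutamine and related amino acids, read 9.18, 9.0 and 9.04 at day 2 and 10.68, 10.49 and 10.73 at day 3, a 2.95-fold rise (limma adjusted p = 1.23e-05). Nnat (neuronatin), an imprinted gene expressed from the paternal allele, read 7.37, 7.40 and 7.20 at day 2 and 8.87, 9.06 and 8.45 at day 3 (log2 change 1.47 ± 0.19, limma adjusted p = 0.000738). Both genes were higher on all 3 day 3 arrays. Of 28 corepressor subunits measured 4 rose (14.3%, beside 5.7% of all genes tested) and 1 fell (3.6%, beside 6.7%), with a median of -0.02. Suds3 (log2 change 0.56, limma adjusted p = 0.00432), Brms1 (0.53, 0.00943) and Ing2 (0.65, 0.00481), all subunits of the Sin3 complex, rose, as did Sap130, whose limma adjusted p was 0.015, but 0.0507 with day 2 replicate 1 omitted and 0.051 with day 2 replicate 3 omitted.

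The genes that fell included regulators of the pluripotent state. Of 34 measured pluripotency genes 8 fell (23.5%, beside 6.7% of all genes tested) and 1 rose (2.9%, beside 5.7%), with a median log2 change of -0.21. The falls numbered 5 on omitting replicate 3 of day 2, and 5 on omitting replicate 1 of day 3. Prdm14, a transcriptional repressor that keeps ES cells in the naive state, read 7.96, 7.64 and 7.71 at day 2 and 6.59, 6.42 and 6.17 at day 3, a 2.6-fold fall (log2 change -1.38 ± 0.15, limma adjusted p = 0.000242). Fgf4, the growth factor that ES cells secrete and respond to, read 7.60, 7.39 and 7.64 at day 2 and 5.96, 5.64 and 6.53 at day 3 (log2 change -1.50 ± 0.21, limma adjusted p = 0.00114), where 2 of the 3 arrays detected it. In both genes all day 3 arrays lay below all day 2 arrays, and both had already fallen by day 2, with log2 changes of -0.86 and -0.80. The summed normalized intensity of 10 ES cell markers, of which Nanog, Zfp42, Esrrb and Fgf4 fell and 0 rose, was 131300 to 135400 at day 2 and 113600 to 117200 at day 3. Dppa5a, at a mean of 16.06 on both days, was by far the brightest and was not called (log2 change 0.005, limma adjusted p = 0.98). The sum therefore says little of the dimmer markers. In whole cultures fewer cells of a type and less RNA per cell cannot be told apart. The call of Esrrb (limma adjusted p = 0.0429) was lost in 10 of the 12 fits that leave out 1 array, at 0.0536 to 0.133, and that of Zfp42 in 4 of them, at 0.0688 to 0.101.

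Nanog, a core transcription factor of pluripotency, read 13.64, 14.22 and 14.18 at day 2 and 12.91, 13.37 and 13.55 at day 3 (log2 change -0.74 ± 0.18, limma adjusted p = 0.0221), with a log2 change of 0.00 up to day 2. Its call did not hold without every array, since the limma adjusted p was 0.084 with day 2 replicate 2 omitted, 0.0899 with day 2 replicate 3 omitted and 0.0795 with day 3 replicate 1 omitted. Pou5f1 (Oct4) read 13.09, 13.08 and 13.09 at day 2 and 13.10, 13.04 and 12.58 at day 3, overlapping levels with a log2 change of -0.18 ± 0.15 (limma adjusted p = 0.454). Sox2 read 9.73, 9.45 and 9.57 at day 2 and 9.30, 9.05 and 9.34 at day 3, with a log2 change of -0.35 ± 0.14 (limma adjusted p = 0.126). Neither passed the test, which does not show that they were level. Dnmt3l, the cofactor of the de novo DNA methyltransferases, went the other way and read 14.45, 14.07 and 14.15 at day 2 and 15.15, 14.98 and 14.89 at day 3 (log2 change 0.78 ± 0.12, limma adjusted p = 0.00206). Tet1, which oxidizes methylcytosine, changed by -0.87 (limma adjusted p = 0.00221), and Phc1, a Polycomb subunit abundant in ES cells, changed by -0.86 (limma adjusted p = 0.0019).

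Other falls were among the steepest. Ubap1l, which resembles a ubiquitin-binding sorting protein, read 8.48, 8.40 and 7.83 at day 2 and 6.20, 5.94 and 5.72 at day 3 and fell 4.87-fold (limma adjusted p = 2.05e-05). Of its day 3 arrays 1 of 3 detected it, as for Sall2 and Zbtb26 below, so the size of these 3 falls is set by readings not above background. Hsd17b1, an enzyme that makes estradiol, read 8.16, 8.34 and 8.60 at day 2 and 6.49, 6.58 and 6.53 at day 3 (log2 change -1.83 ± 0.15, limma adjusted p = 4.21e-05). No change of Hsd17b1 was called between day 0 and day 2 (log2 change 0.09). The transcription factor Sall2 read 7.03, 7.18 and 6.95 at day 2 and 5.79, 5.21 and 5.99 at day 3 (log2 change -1.39 ± 0.18, limma adjusted p = 0.000682). Zbtb26, a zinc finger protein, changed by -1.39 (limma adjusted p = 0.00713). In each of these 4 genes all day 3 arrays lay below all day 2 arrays. Pex11g, a peroxisome protein, was undetected at day 3 and at least 1.59-fold lower there (limma adjusted p = 0.00122). Prdm16, a zinc finger regulator, was likewise undetected at day 3 and at least 1.42-fold lower (limma adjusted p = 0.013, but 0.0594 with day 2 replicate 3 omitted and 0.0507 with day 3 replicate 2 omitted). Among regulators of the cell cycle, Ccnd2 (cyclin D2) read 8.40, 8.60 and 8.71 at day 2 and 7.56, 6.84 and 7.31 at day 3, with a log2 change of -1.33 ± 0.17 (limma adjusted p = 0.000738).

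Of the 40 gene lists examined, that of glycolysis and the hypoxia response had the largest share of falls. Of 30 measured, 12 fell (40.0%, beside 6.7% of all genes tested) and 1 rose, with a median log2 change of -0.35. The falls numbered 7 on omitting replicate 2 or 3 of day 2. Slc2a1 (GLUT1), the main glucose transporter of ES cells, read 13.69, 13.45 and 13.70 at day 2 and 12.64, 12.64 and 12.59 at day 3 (log2 change -0.99 ± 0.11, limma adjusted p = 0.000242). Egln3, a prolyl hydroxylase that marks the hypoxia-inducible factor HIF for degradation and is itself induced by it, read 9.44, 9.54 and 9.83 at day 2 and 8.15, 8.63 and 8.81 at day 3 (log2 change -1.07 ± 0.17, limma adjusted p = 0.00206). No day 3 array of either gene reached the day 2 range. The glycolytic enzyme Tpi1 changed by -0.67 (limma adjusted p = 0.00206). Stc1 (stanniocalcin 1), a secreted protein induced by hypoxia, read 7.26, 7.15 and 7.14 at day 2 and was undetected on every day 3 array, which made it at least 2.14-fold lower there (limma adjusted p = 0.000195).

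The promoters of the genes of this list were read for the core HIF motif ACGTG on both strands, overlapping matches included, in the 300 bases from 250 before to 50 after the start of each RefSeq gene (GRCm38.p6). The motif was found in 18 of the 27 measured list members with a promoter sequence (66.7%), in 7 of the 9 called lower (77.8%) and in 11 of the 18 not called lower (61.1%), beside 30.1% of the 8068 genes tested that have a promoter sequence and 21.8% of all 27025 genes of the table, a gene with several starts being counted once if any held it. A match describes these letters only and is no evidence of binding. The promoter of Tpi1, also named above, holds 0 matches. That of Slc2a1 (chr4:119108495-119108794, plus strand) is shown as an example of a member that fell and holds a match. Capitals mark the match, which may lie on either strand and starts 36 bases before the gene start.
Slc2a1 promoter: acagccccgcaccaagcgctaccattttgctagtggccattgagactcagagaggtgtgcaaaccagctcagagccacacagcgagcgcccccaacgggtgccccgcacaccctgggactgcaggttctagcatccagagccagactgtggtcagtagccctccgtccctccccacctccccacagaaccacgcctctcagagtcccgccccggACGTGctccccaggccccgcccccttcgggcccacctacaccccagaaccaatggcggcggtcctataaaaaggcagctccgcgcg

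Genes of the integrated stress response and of the unfolded protein response also fell. In the integrated stress response the transcription factor ATF4 is translated when eIF2alpha is phosphorylated, and it raises genes of amino acid supply and of stress adaptation. Of 44 measured, 9 fell (20.5%, beside 6.7% of all genes tested) and 0 rose by the limma test, with 2 higher at an unadjusted p under 0.05, and the median was -0.24. Vldlr, the very-low-density lipoprotein receptor, read 7.24, 7.21 and 7.55 at day 2 and was undetected on all day 3 arrays, at least 2.38-fold lower (limma adjusted p = 4.4e-05). Chac1, which breaks down glutathione and is a known ATF4 target, read 11.23, 11.17 and 11.04 at day 2 and 10.13, 10.03 and 9.88 at day 3 (log2 change -1.13 ± 0.12, limma adjusted p = 0.000195). Nupr1, a small stress-induced chromatin protein, read 11.21, 11.32 and 10.92 at day 2 and 9.82, 10.37 and 9.35 at day 3 (log2 change -1.30 ± 0.23, limma adjusted p = 0.00368). In these 3 genes the days did not overlap. Ddit4 (REDD1), an inhibitor of mTORC1 that responds to both hypoxia and stress, changed by -0.87 (limma adjusted p = 0.00139).

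The composite ATF4 and C/EBP motif TGATGNAA, read on both strands in the same promoter window, was present in 4 of the 8 members called lower that have a promoter sequence, in 5 of the 30 not called lower (16.7%), in 2.6% of the genes tested and in 4.5% of all genes of the table. The list joins genes of both responses, and here too a match is no evidence of binding. The first Vldlr start and the promoter of Ddit4, also named above, hold 0 matches. The promoters of Chac1 (chr2:119350992-119351291, plus strand) and of the second Vldlr start in the table (chr19:27216770-27217069, plus strand) are given as examples of members that fell and hold a match. Capitals mark the motif, which may lie on either strand, and begin 193 bases before the start of Chac1 and 200 bases before that of Vldlr.
Chac1 promoter: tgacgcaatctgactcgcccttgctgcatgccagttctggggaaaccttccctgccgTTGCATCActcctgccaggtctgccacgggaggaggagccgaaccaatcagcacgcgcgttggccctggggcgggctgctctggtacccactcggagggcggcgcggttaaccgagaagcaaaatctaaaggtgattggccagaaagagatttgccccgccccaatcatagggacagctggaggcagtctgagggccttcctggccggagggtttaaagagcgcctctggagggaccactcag
Vldlr promoter: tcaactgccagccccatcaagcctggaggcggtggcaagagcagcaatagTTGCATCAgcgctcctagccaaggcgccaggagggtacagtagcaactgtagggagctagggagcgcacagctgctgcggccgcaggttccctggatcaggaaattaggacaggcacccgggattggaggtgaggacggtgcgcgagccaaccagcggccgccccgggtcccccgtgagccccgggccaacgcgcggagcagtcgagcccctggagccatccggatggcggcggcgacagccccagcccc

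**Figure D3:**
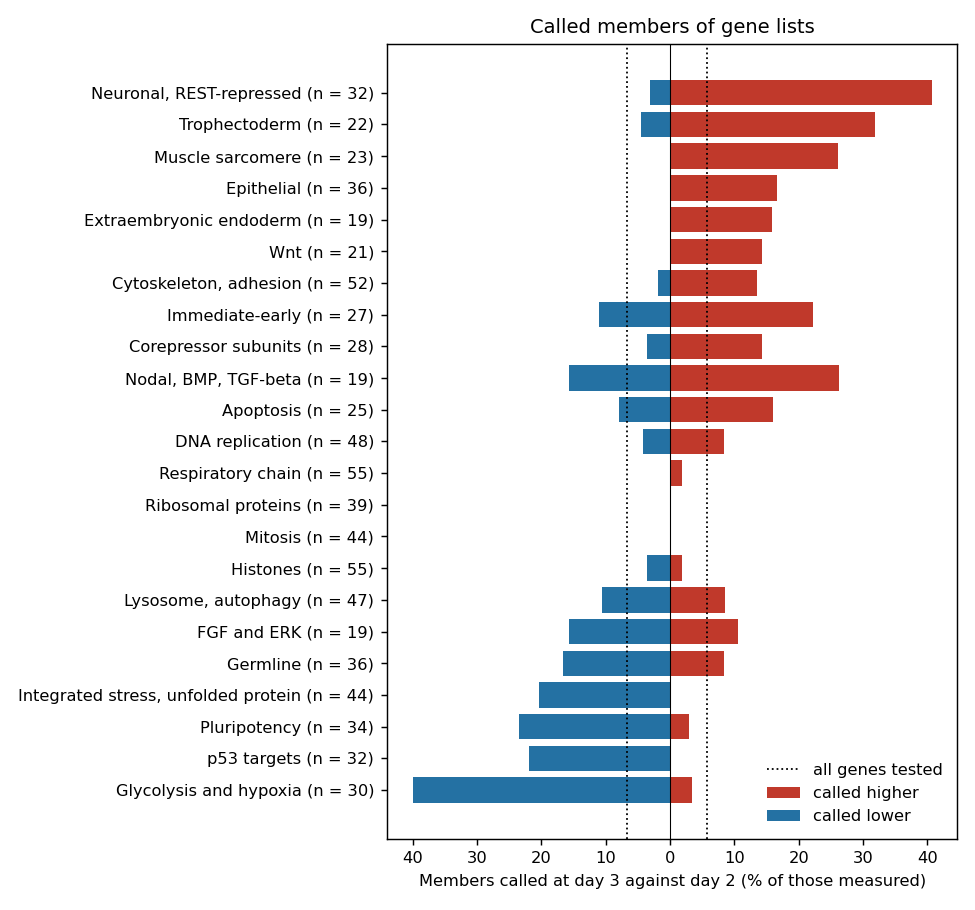
Share of the measured members of 23 gene lists called higher (red, to the right) or lower (blue, to the left) at day 3 against day 2, in percent, with the number measured (n) beside each name and dotted lines at the shares over all genes tested. Neuronal genes reach 40.6% called higher and glycolysis and hypoxia genes 40.0% called lower, beside 5.7% and 6.7% over all genes.

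Of 32 measured p53 targets 7 fell (21.9%, beside 6.7% of all genes tested) and 0 rose by the limma test, with 2 higher at an unadjusted p under 0.05 (median -0.28). The falls numbered 3, 4 and 1 on omitting replicate 1, 2 or 3 of day 2, and 4 and 2 on omitting replicate 1 or 2 of day 3, so their number depended on single arrays. Trp53inp1, a stress-induced regulator of autophagy and death, read 12.85, 13.01 and 13.04 at day 2 and 12.41, 12.20 and 12.34 at day 3 (log2 change -0.64 ± 0.13, limma adjusted p = 0.00801), and kept its call without any 1 array. Apoptosis genes moved both ways, with 4 of 25 higher (16%, beside 5.7% of all genes tested) and 2 lower (8%, beside 6.7%), and a median of 0.04. The rises numbered 1 on omitting replicate 3 of day 2, and 1 on omitting replicate 2 of day 3. The falls numbered 0 and 1 on omitting replicate 1 or 3 of day 2, and 0 on omitting replicate 2 of day 3. Cflar (c-FLIP), which blocks caspase-8 at death receptors, read 6.14, 5.90 and 6.06 at day 2 and 6.83, 6.99 and 6.49 at day 3 (log2 change 0.74 ± 0.15, limma adjusted p = 0.0073). Lysosomal genes were also divided, 4 of 47 being higher (8.5%, beside 5.7% of all genes tested) and 5 lower (10.6%, beside 6.7%), with a median of 0.03. The rises numbered 2 and 1 on omitting replicate 2 or 3 of day 2, and 2, 1 and 7 on omitting replicate 1, 2 or 3 of day 3, and the falls 3 on omitting replicate 1, 2 or 3 of day 2, and 3 on omitting replicate 1 or 2 of day 3. The lysosomal enzyme Manba changed by -1.08 (limma adjusted p = 0.000195) and the membrane receptor Scarb2 by -1.06 (limma adjusted p = 0.000522, detected on 2 of the 3 day 3 arrays), whereas Grn (progranulin) rose by 0.60 (limma adjusted p = 0.00781).

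Several large gene classes showed few calls at this step, beside 5.7% higher and 6.7% lower of all genes tested. Of 55 histone genes 1 rose and 2 fell (median -0.16), the falls being 4 on omitting replicate 1 of day 0, 1, 0 and 0 on omitting replicate 1, 2 or 3 of day 2, and 1 on omitting replicate 1 or 2 of day 3. Among 44 mitosis genes limma called 0, with 4 higher and 8 lower at an unadjusted p under 0.05, and 7 were called lower without day 3 replicate 3. Of 39 ribosomal protein genes limma called 0, with 0 higher and 1 lower at an unadjusted p under 0.05, and of 22 extracellular matrix genes 0, with 1 of each at an unadjusted p under 0.05. Of 55 respiratory chain genes 1 rose and 0 fell, with 0 lower at an unadjusted p under 0.05. These counts do not show that the genes were level.

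**Figure D4:**
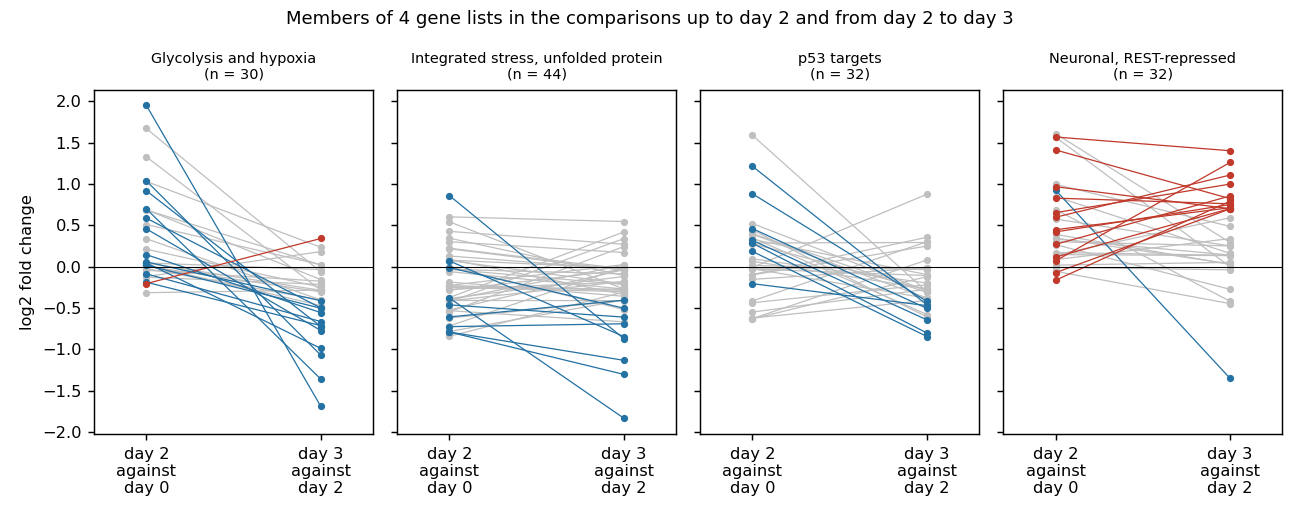
Log2 fold change of each member of 4 lists in day 2 against day 0 and in day 3 against day 2, joined by a line per gene, with genes called higher (red), lower (blue) or not called (grey) in the second comparison. Both comparisons use the day 2 arrays, so a chance deviation at day 2 moves them in opposite directions, and the slopes are a description.

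Part of the step ran against the change of the first 2 days. A gene was counted as reversing when it was called in 1 direction from day 0 to day 2 and in the other from day 2 to day 3, and 108 genes (1.09%) rose and then fell, while 32 (0.322%) fell and then rose. Both comparisons share the day 2 arrays, so a gene read too high or too low at day 2 by chance is favoured by this count. The first group had a median log2 change of 0.72 up to day 2 and of -0.68 from day 2 to day 3, which left a median of 0.02 against day 0. At day 3, 81 of the 108 were not called against day 0, 18 were still higher and 9 were now lower. The second group had medians of -0.61 and 0.68, and 28 of its 32 genes were not called at day 3 against day 0, 2 were still lower and 2 were now higher. Both calls held in all 12 fits that leave out 1 array for 37 of the 108 and for 7 of the 32. The first count became 65, 54 and 54 when replicate 1, 2 or 3 of day 2 was omitted, and 71 when replicate 2 of day 3 was. The second became 18 on omitting replicate 2 of day 0 and 21 on omitting replicate 1 of day 1. It was 16 and 10 on omitting replicate 2 or 3 of day 2, and 19, 18 and 87 on omitting replicate 1, 2 or 3 of day 3.

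Lefty1, a secreted antagonist of Nodal, read 9.15, 9.12 and 9.11 at day 0, 10.22, 10.04 and 9.998 at day 2 and 8.71, 8.84 and 8.38 at day 3. It rose by 0.96 ± 0.13 on the log2 scale up to day 2 (limma adjusted p = 0.000297) and then had a change of -1.44 ± 0.13 (limma adjusted p = 7.07e-05), ending below its day 0 level. Txnip, an inhibitor of thioredoxin and of glucose uptake that HDAC inhibitors are known to raise, read 12.21, 12.23 and 12.29 at day 0, 13.09, 12.89 and 13.05 at day 2 and 11.67, 11.86 and 11.79 at day 3. All 3 day 3 arrays of Txnip lay below both earlier groups, and its changes were 0.76 ± 0.11 (limma adjusted p = 0.000391) and then -1.24 ± 0.11 (limma adjusted p = 4.98e-05).

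Stc1 was undetected at days 0, 1 and 3 and was detected on all 3 arrays of day 2. Egln3 rose by 1.04 ± 0.17 up to day 2 (limma adjusted p = 0.000976) before the fall given above. Camk2n1 read 7.11, 6.60 and 7.45 at day 0, lower than the day 2 values given above, and rose by 0.92 ± 0.19 (limma adjusted p = 0.00457) before it fell. Lefty2, the paralog of Lefty1, had changes of 1.10 up to day 2 and -0.92 after it (limma adjusted p = 0.00592 for the second). Egr1, an immediate-early transcription factor downstream of ERK, changed by 1.76 ± 0.12 and then by -0.68 ± 0.12 (limma adjusted p = 0.00398 for the second), so that it stayed 1.07 above day 0. Hspb8, a small heat shock protein, changed by 1.01 and then by -0.57 (limma adjusted p = 0.00941 for the second). These 6 genes kept both calls in all 12 fits that leave out 1 array.

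Tmc7, a channel-like membrane protein, read 7.57, 7.26 and 7.66 at day 0, 8.21, 8.26 and 8.65 at day 2 and 6.43, 5.63 and 6.71 at day 3, with a second change of -2.12 ± 0.23 (limma adjusted p = 0.000253) and 2 of the 3 day 3 arrays detecting it. Its first change, 0.88, had a limma adjusted p of 0.066 with day 0 replicate 2 omitted and 0.0714 with day 2 replicate 3 omitted. Xntrpc, annotated as a readthrough of neighbouring genes, changed by -1.26 after day 2 (limma adjusted p = 0.00819), with 1 of the 3 day 3 arrays detecting it. Cdk3, a cyclin-dependent kinase, and Plch2, a phospholipase C, were undetected on all day 3 arrays, at least 1.27-fold and at least 1.47-fold lower than at day 2 (limma adjusted p = 0.00112 and 0.00569).

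**Figure D5:**
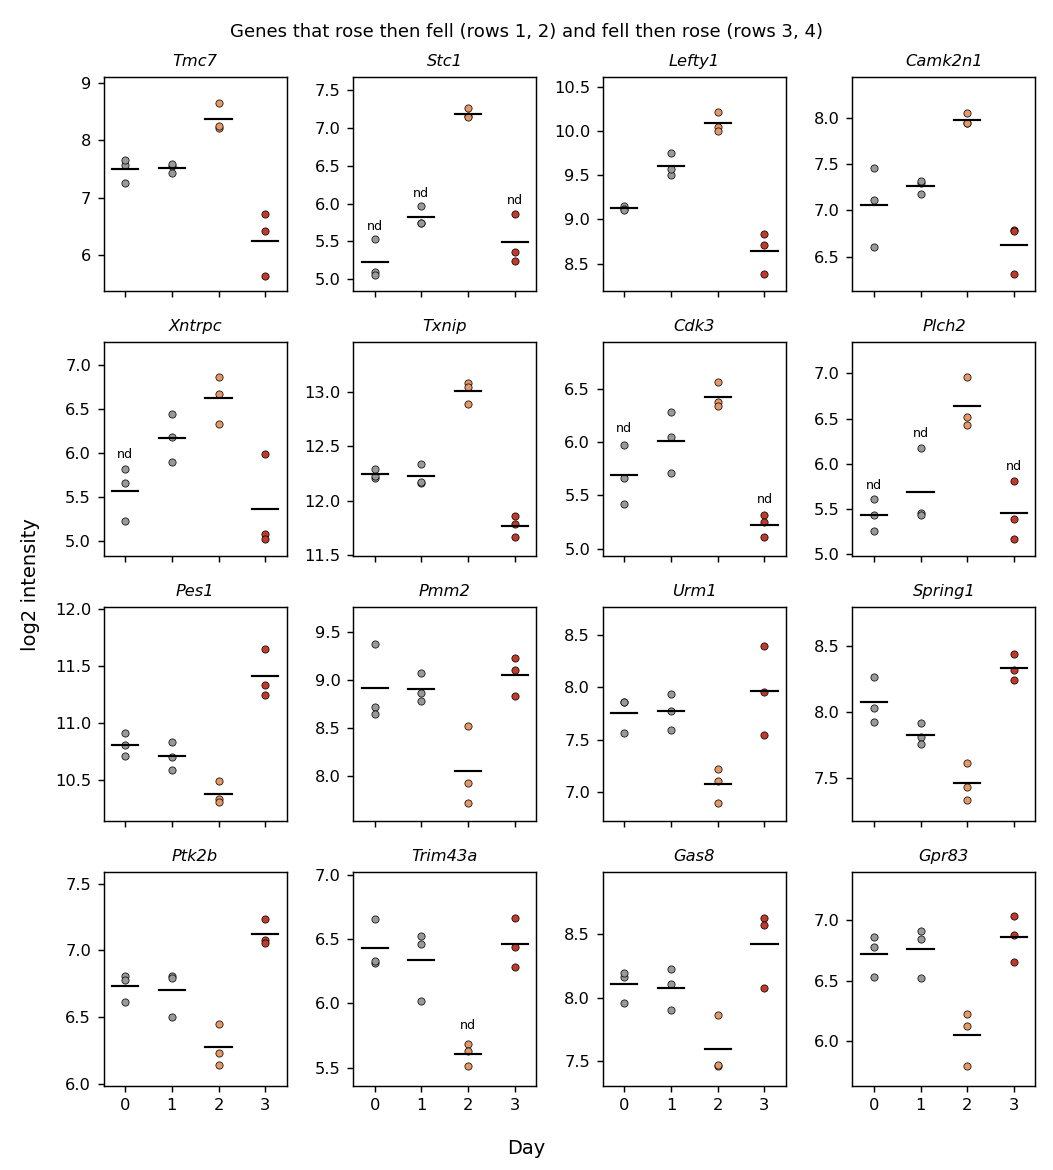
Log2 intensity on each array (points) and the mean of each day (bar) on days 0 to 3, for the 8 genes named that rose and then fell (upper 2 rows) and the 8 that fell and then rose (lower 2 rows), with nd where no array of the day detected the probe. Stc1 was detected on the day 2 arrays only, and Txnip ended below day 0.

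Among genes that fell and then rose, Spring1, a regulator of the sterol-sensing SREBP pathway, read 8.03, 8.27 and 7.92 at day 0, 7.61, 7.43 and 7.33 at day 2 and 8.32, 8.44 and 8.24 at day 3 (log2 change from day 2 0.88 ± 0.12, limma adjusted p = 0.00114). The day 2 arrays were the lowest of the 3 groups, without overlap. Gpr83, a G protein-coupled receptor, read 6.86, 6.78 and 6.53, then 6.12, 6.22 and 5.79 and then 7.04, 6.66 and 6.88 on the same 3 days (log2 change from day 2 0.81 ± 0.16, limma adjusted p = 0.00702), with 2 of the 3 day 2 arrays detecting it. Trim43a, a gene of the preimplantation embryo, was detected on all arrays of days 0 and 3 and on none of day 2, and was at least 1.44-fold higher at day 3 than at day 2 (limma adjusted p = 0.00517). Cflar, described above, had fallen by day 2 with a change of -0.77. These 4 genes kept both calls without any 1 array.

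Pes1, a nucleolar protein of ribosome assembly, read 10.71, 10.81 and 10.91 at day 0, 10.34, 10.31 and 10.49 at day 2 and 11.33, 11.25 and 11.65 at day 3, and its rise after day 2 was 1.03 ± 0.13 (limma adjusted p = 0.000593). Its earlier fall was small, -0.43, and had a limma adjusted p of 0.0752 or 0.0864 with replicate 2 or 3 of day 0 omitted, and of 0.0825 or 0.0979 with replicate 1 or 2 of day 2 omitted. Pmm2, an enzyme of protein glycosylation, rose by 1.00 after day 2 (limma adjusted p = 0.0143, but 0.0539 with day 2 replicate 2 omitted, 0.0659 with day 2 replicate 3 omitted and 0.0513 with day 3 replicate 1 omitted). Urm1, a ubiquitin-like modifier of transfer RNA, rose by 0.88 (limma adjusted p = 0.0115, but 0.0534 with day 2 replicate 3 omitted). The tyrosine kinase Ptk2b rose by 0.85 (limma adjusted p = 0.00158) and the dynein regulator Gas8 by 0.83 (limma adjusted p = 0.00838). The fall up to day 2 was lost, with limma adjusted p between 0.0537 and 0.0754, for Ptk2b on omitting replicate 2 or 3 of day 0 or replicate 1 or 3 of day 2. For Gas8 it was lost without either of day 0 replicates 1 and 2, any of the 3 day 1 arrays, or either of day 2 replicates 2 and 3, with limma adjusted p from 0.0527 to 0.148.

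The change from day 2 to day 3 was also tested directly against the change from day 1 to day 2, and 237 genes (2.39%) passed, 72 with the later change the higher and 165 with it the lower. Both changes use the day 2 arrays. On omitting replicate 1, 2 or 3 in turn, the number became 111, 103 and 125 for the day 1 arrays, 73, 22 and 16 for the day 2 arrays, and 137, 142 and 544 for the day 3 arrays. For Egr1 the later change was -2.12 ± 0.21 relative to the earlier one (limma adjusted p = 0.000745), for Txnip -2.02 ± 0.19 (limma adjusted p = 0.000745) and for Lefty1 -1.92 ± 0.23 (limma adjusted p = 0.00311), and all 3 kept the call in each of the 12 fits without 1 array. On the other side Amn gained 1.46 ± 0.28 more in the later step (limma adjusted p = 0.0197), a call lost on omitting any of the 3 day 2 arrays, at up to 0.114. Stc1, Actc1 and Akr1cl also passed, but each was undetected on all day 1 arrays, so the size of their difference is not given here.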

How the data were processed

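RNA of 12 samples was hybridised to Illumina mouse bead arrays, and days 2 and 3, 3 arrays each, were compared. The deposited table gives, per the file headers, an intensity for each of 45281 probes on each array, on a linear scale that the values show to be neither background corrected nor scaled between arrays, and beside it a deposited detection p-value. The submitters' processing notes name GenomeStudio, with the version not given in the sources used here. A table of normalized intensities that the authors deposited served as an alternative, and 0 columns of per-sample values were left unused.

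Background correction from the detection p-values, an offset of 16, quantile normalization and log2 transformation were done by neqc (limma 3.58.1, R 4.3.3). A probe was kept if 3 or more of the 12 arrays had a detection p below 0.01 (17337 probes). The probe annotation gave 1 symbol for 34885 of the 45281 probes, several for 18 and none for 10378, and 34807 matched RefSeq by Entrez ID. The brightest detected probe stood for a gene, which gave 9934 genes. Of the 426 called genes with a further detected probe, every such probe had the opposite sign in 19.

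The limma fit (lmFit, eBayes) used every array and gave each day its own mean, and genes were called at a two-sided Benjamini-Hochberg adjusted p under 0.05 over all genes. The number of arrays limits the precision. The files give no slide or scan batch. Replicate numbers were not taken as pairs in the main fit, since the labels do not say whether they pair arrays across days. The deviations from the day means of same-numbered day 2 and day 3 arrays correlated at 0.351, 0.0661 and 0.458. Those of day 2 and day 3 arrays with other numbers correlated at -0.438 to 0.197. The values of replicates 1 and 3 lay above this range, and that of replicate 2 lay within it. Pairing was run as an alternative. The 40 gene lists and the genes followed were chosen with earlier results of these data known. Genes were named by rule: the 12 largest called rises and falls without overlap between days, 8 reversals and 6 differences between steps in each direction, up to 4 called members per list by p, and Hdac1, Hdac2, Pou5f1, Sox2 and Nanog. Alternatives changed the background correction, scaling, filter, probe rule, arrays fitted, replicate block and array weights, and left out arrays. Of the list symbols, 3 had no gene ID.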

Additional observations from a re-analysis of the deposited data

Results flagged for a closer look

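For 45 of the genes named by the rule, the change from day 2 to day 3 differed from the change from day 1 to day 2 in limma's test of that difference, which flagged them. The values are the later log2 change minus the earlier one, as fitted. For Stc1, Actc1, Akr1cl, Cldn10, Rsad2, Celf5, Plch2, Cdk3, Vldlr, Trim43a, Cd164l2 and Fam114a1 no array of at least 1 of days 1 to 3 detected the probe, so their values rest on readings not above background and are neither sizes nor bounds. Groups of 3 arrays are too small for a test of single outlying arrays. The call held in all 12 fits that leave out 1 array for 5 of the 45: Stc1 (-3.06), Egr1 (-2.12), Txnip (-2.02), Lefty1 (-1.92) and Actc1 (1.53). Every difference shares the day 2 arrays between its 2 steps, so a chance deviation of those arrays counts in both.

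Among genes of the hypoxia and stress responses the later change was the lower for Egln3 (-1.88), Slc2a1 (-1.16), Vldlr (-1.71), Ddit4 (-1.4), Hspb8 (-1.4), Trp53inp1 (-1.02) and Mdm2 (-0.966). The same held for the linker histone genes H1f2 (-1.33) and H1f1 (-1.13), the lysosomal genes Lamp2 (-1.19) and Manba (-1.05), the Nodal antagonist Lefty2 (-1.86) and the receptor tyrosine kinase Kit (-0.903). Further differences in this direction were those of Tmc7 (-2.96), Fam114a1 (-2.48), Fam181b (-2.33), Cd164l2 (-2.16), Plch2 (-2.12), Camk2n1 (-2.07), Hsd17b1 (-1.68) and Cdk3 (-1.62).

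The later change was the higher for Akr1cl (2.07), Exoc3l (2.07), Amn (1.46), Rsad2 (1.45), Cldn10 (1.52), Tead4 (1.43), Vgf (1.27) and the RNA-binding protein gene Celf5 (1.71). Genes that fell by day 2 and then rose, or that moved likewise, make up the rest: Pmm2 (1.85), the zinc finger gene Zfp423 (1.83), the tRNA deaminase gene Adat3 (1.7), Cflar (1.61), Urm1 (1.58), Trim43a (1.58), Gpr83 (1.53), Pes1 (1.37), Gas8 (1.31), Ptk2b (1.28) and Spring1 (1.25).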

How the results depend on the processing

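In none of the alternatives run was a gene called in the direction opposite to that reported. The counts of genes changed, higher, lower, rising then falling, falling then rising and differing between steps are given in this order. Without scaling between arrays they were 187, 22, 165, 35, 0 and 39, with array weights 2112, 1025, 1087, 185, 95 and 963, and with the replicate block, in which the numbers are taken as pairs, 1973, 923, 1050, 186, 90 and 549. In deviations from the day means, compared between arrays of different days only, 11 of 12 arrays correlated best with an array of their own number. This is a hint of pairing from the data and not from the design. Fitted on the 6 arrays of days 2 and 3 alone, 624 genes changed, 310 higher and 314 lower, and fewer samples enter that fit. The genes falling then rising numbered 49 without background correction, 49 in the deposited normalized values, 20 without a filter on dim probes and 55 when scaled to the 75th percentile of all probes, an alternative chosen after seeing the data. The differences between steps numbered 382, 382 and 148 under the first 3 of these. The values without background correction and the deposited normalized values gave the same result for every count, so they are not separate checks. Leaving out 1 array, or 1 replicate number on every day, gave 98 to 1797 changed, 41 to 850 higher, 57 to 947 lower, 10 to 140 rising then falling, 1 to 87 falling then rising and 0 to 544 differing between steps. Over the genes followed singly and all alternatives, left-out arrays included, a reported call was lost in 2053 results and gained in 2, and 6661 results were unchanged. In 3 results the sign turned: Hilpda (-0.018) and Troap (-0.019) without scaling, where the whole table shifts down, and Cebpe (0.26) without the filter. The cause of the other moves was not tested. Probes near the background, such as those of Stc1 and Rsad2, give bounds only.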

Other observations

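Germline genes moved both ways: of 36 measured, 3 rose and 6 fell, which is 25% called beside 12.4% of all genes tested (median log2 change -0.01). The rises numbered 1 on omitting replicate 2 or 3 of day 2, and 1 on omitting replicate 1 of day 3, and the falls 3, 3 and 2 on omitting replicate 1, 2 or 3 of day 2, and 3 and 2 on omitting replicate 1 or 2 of day 3. The germ cell transcription factor subunit Taf7l rose by 0.76 (limma adjusted p = 0.0081) and the piRNA pathway gene Asz1 changed by -0.65 (limma adjusted p = 0.015), with 2 of the 3 day 3 arrays detecting it. Of 11 genes of the 2-cell embryo 2 rose (18.2%, beside 5.7% of all genes tested), among them Tcstv1 by 0.76 (limma adjusted p = 0.00514). The rises numbered 1 on omitting replicate 2 or 3 of day 1, 1 on omitting replicate 1, 2 or 3 of day 2, and 1 on omitting replicate 3 of day 3. Of 19 DNA methylation genes 1 rose and 3 fell (21.1% called, beside 12.4% of all genes tested, median 0.05).

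Amino acid transporters went both ways, with 2 of 22 higher (9.1%, beside 5.7% of all genes tested) and 3 lower (13.6%, beside 6.7%). The rises numbered 1 on omitting replicate 2 or 3 of day 2, and 1 on omitting replicate 1 or 2 of day 3. Beside the rise of Slc38a5, the glutamate transporter Slc1a3 read 9.37, 9.24 and 9.17 at day 2 and 8.60, 8.53 and 8.78 at day 3 (log2 change -0.62 ± 0.11, limma adjusted p = 0.00385). The neutral amino acid transporter Slc1a4 changed by -0.59 (limma adjusted p = 0.00991). Gpx2, a selenium-dependent glutathione peroxidase, was the 1 gene called of 28 antioxidant genes (3.6%, beside 12.4% of all genes tested), with a rise of 0.77 (limma adjusted p = 0.00262). Cd74, the invariant chain of class II antigen presentation, read 8.29, 8.40 and 7.90 at day 2 and 9.66, 9.65 and 9.16 at day 3, without overlap (log2 change 1.29 ± 0.18, limma adjusted p = 0.000976). Meis2, a homeobox regulator, read 6.61, 6.92 and 6.87 at day 2 and 6.11, 5.22 and 5.79 at day 3 (log2 change -1.10 ± 0.20, limma adjusted p = 0.00451), after a change of -1.83 up to day 2, and 1 of the 3 day 3 arrays detected it, so the size of this fall is set by readings not above background. The acetyltransferase gene Kat6b was the 1 gene called of 12 acetyltransferase genes (8.3%, beside 12.4% of all genes tested), with a change of -0.64 (limma adjusted p = 0.00555). Acetyltransferase genes called lower numbered 2 on omitting replicate 2 of day 2, and 3 on omitting replicate 3 of day 3.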
